A study of Mus musculus with 20 samples.

Results

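The genes described here are 10 established transcriptional targets of p53: Cdkn1a, Mdm2, Ccng1, Trp53inp1, Phlda3, Sesn1, Sesn2, Bax, Pmaip1 and Zmat3. Members were every probe set of the deposited table whose gene symbol is one of these names, and 8 of the 10 had a probe set of their own, all 8 among the 11968 genes tested. Cdkn1a appears only on a probe set that also carries the symbol 4930567H12Rik, so its values are given as those of a shared probe set, and Bax is not analysed here. The samples were splenic B cells of C57BL/6 mice 8 to 12 weeks old, of both sexes together. Cells bearing CD43 had been removed with magnetic beads before culture. TAK1-deleted cells carried floxed alleles of TAK1, the kinase encoded by Map3k7, together with the mb-1 deleter. This deleter uses the promoter of mb-1, a B-lineage gene, so deletion is meant to be limited to the B lineage. Wild type cells carried the mb-1 deleter as well, with unfloxed TAK1 alleles. Each genotype was sampled without stimulation (0 h) and after 1, 3, 6 and 24 h with 10 µg/ml of anti-IgM, which engages the antigen receptor of B cells, with 2 arrays in each of the 10 groups.

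p53 is a transcription factor that binds DNA at paired copies of a short consensus sequence and is held at low levels by Mdm2, a ubiquitin ligase that p53 itself induces. Its targets stop the cell cycle (Cdkn1a, which encodes the CDK inhibitor p21), promote death through mitochondria (Bax and Pmaip1, which encodes Noxa), restrain Akt or mTORC1 signalling (Phlda3 and the sestrins Sesn1 and Sesn2) and feed back on p53 or on RNA (Ccng1, Trp53inp1 and Zmat3). In B cells, DNA damage and the proliferation that follows receptor engagement are settings in which this network is studied, and several of its targets also respond to other transcription factors.

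Values are log2 signals as the authors deposited them, and each difference is a log2 fold change, given with its standard error and adjusted p from a limma fit over all 11968 genes. Over those genes, r between the arrays of a group lay between 0.979 and 0.994, and genes are no independent replicates. The labels do not say whether the 2 arrays came from separate mice, so p-values measure the spread between these arrays, which may be technical, and their precision is limited by the number of arrays. Whether unstimulated cells were kept in culture is likewise unstated. Map3k7 signal was 10.40 to 10.76 in TAK1-deleted arrays and 10.16 to 10.71 in wild type arrays, and whether its probes lie in the deleted part is not analysed here, so this gene did not check the genotype. The 9 B cell markers tested averaged 11.77 to 13.12 in TAK1-deleted arrays and 12.00 to 13.17 in wild type arrays. RMA does not subtract background to 0, so no value reads 0 and fold changes of dim genes can be understated.

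Promoter windows of the members are shown because Ccng1 and Phlda3 both rose at 6 h while their windows differ in the p53 motif. Each window is 300 bases, from 250 before to 50 after the annotated start, and comes from RefSeq (GRCm38.p6). The p53 half-site consensus, of 10 bases, is its own reverse complement, so 1 search covered both strands. It was searched without mismatch, and a pair meant 2 half-sites with a gap of at most 13 bases and at most 1 mismatch over 20 bases. Capitals mark a pair in Ccng1 (chr11:40755237-40755536, minus strand), inside which its exact half-site lies. The Phlda3 window (chr1:135765835-135766134, plus strand) had no match.
Ccng1: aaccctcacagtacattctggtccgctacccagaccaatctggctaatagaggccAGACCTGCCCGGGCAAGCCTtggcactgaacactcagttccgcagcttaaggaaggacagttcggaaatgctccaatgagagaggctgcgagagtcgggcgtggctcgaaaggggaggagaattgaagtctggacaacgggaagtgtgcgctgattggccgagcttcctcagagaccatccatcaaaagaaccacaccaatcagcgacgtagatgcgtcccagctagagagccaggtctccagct
Phlda3: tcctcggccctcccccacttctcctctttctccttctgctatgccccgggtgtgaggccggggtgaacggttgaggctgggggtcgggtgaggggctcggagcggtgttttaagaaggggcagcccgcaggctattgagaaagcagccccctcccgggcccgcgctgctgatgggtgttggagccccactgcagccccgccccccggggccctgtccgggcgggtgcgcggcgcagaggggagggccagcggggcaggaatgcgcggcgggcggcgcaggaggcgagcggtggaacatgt
The Cdkn1a window at chr17:29090729-29091028 (plus strand) held 2 exact half-sites 12 bases apart. In it the 10 bases directly after the second half-site fit the consensus with 1 mismatch. Those bases and that half-site are also a pair by the rule above, which the match printed below leaves out. The Bax window at chr7:45466849-45467148 (minus strand) held a pair with 1 mismatch, and the Mdm2 window at chr10:117710709-117711008 (minus strand) a single half-site. The best match of each, with half-sites and pairs in capitals, was as follows.
Cdkn1a: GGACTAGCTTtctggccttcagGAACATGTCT
Bax: AAGCATATCCcAGGCAAGCTT
Mdm2: GAACTTGCCT
Of the 7 members whose windows are described here (9 windows), 5 genes had at least 1 exact half-site and 3 windows held a pair. Among all 32851 windows of this length, 2745 (8.36%) held an exact half-site and 359 (1.09%) a pair. A match is a description of these letters, and the absence of one in the Sesn2, Phlda3, first Sesn1 (chr10:41810324-41810623) and second Cdkn1a (chr17:29093519-29093818) windows says nothing about p53 at these genes. The second Sesn1 window (chr10:41887189-41887488) held a half-site. Pmaip1 was left out of the windows described here, and Trp53inp1 and Zmat3 are named only.

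After anti-IgM the 8 genes did not move as one. Among TAK1-deleted cells 1 of the 8 rose and 2 fell at 1 h, where 9.10% of all genes rose and 10.2% fell. After 3 h 1 rose (19.6% of all genes) and 2 fell (22.1%), after 6 h 3 rose (18.5%) and 1 fell (17.3%), and after 24 h 1 rose (14.9%) and 2 fell (12.7%). Among wild type cells 2 rose (10.6%) and 2 fell (13.9%) at 1 h, 1 rose (20.9%) and 2 fell (23.2%) after 3 h, 4 rose (24.1%) and 2 fell (19.1%) after 6 h, and 0 rose (23.6%) and 2 fell (20.2%) after 24 h. The 0 is from limma at adjusted p, and 3 of the 8, counted in either direction and including the 2 that fell, had an unadjusted p below 0.05 there. In either direction, called genes were 37.5%, 37.5%, 50% and 37.5% of the 8 in TAK1-deleted cells at 1, 3, 6 and 24 h, beside 19.3%, 41.7%, 35.8% and 27.6% of all genes. They were 50%, 37.5%, 75% and 25% of the 8 in wild type cells, beside 24.5%, 44.1%, 43.2% and 43.8% of all genes. Each gene is worth 12.5 percentage points of such a share. All 4 times of a genotype share the same 0 h arrays. The median change of the 8 was -0.11, -0.12, 0.32 and 0.00 in TAK1-deleted cells over the 4 times, beside -0.03, 0.02, 0.06 and 0.04 for all genes. In wild type cells it was -0.14, -0.10, 0.38 and -0.16, beside -0.05, 0.04, 0.05 and 0.07 for all genes. The plot of changes from 0 h shows that 3 genes rose at 6 h in both genotypes, while the sestrins, Pmaip1 and Trp53inp1 each had a course of their own.

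**Figure D1:**
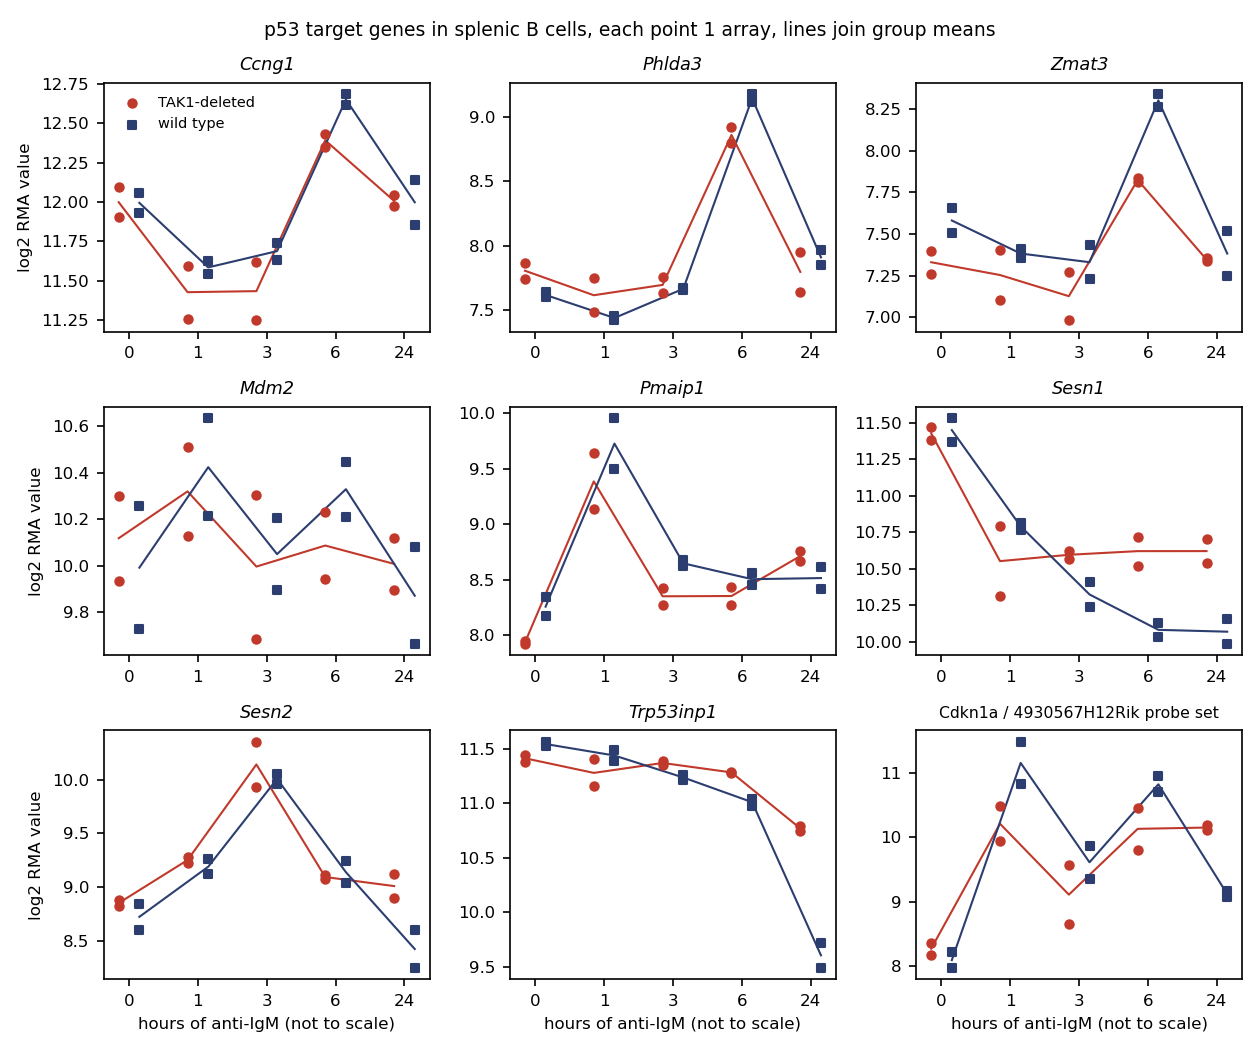
Log2 RMA value of each p53 target gene (y axis) in every array, by hours of anti-IgM (x axis, not to scale), with TAK1-deleted arrays as circles, wild type arrays as squares and lines joining group means. Phlda3, Ccng1 and Zmat3 are highest at 6 h in both genotypes, and the last panel is the probe set shared by Cdkn1a and 4930567H12Rik.

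Phlda3, which encodes a pleckstrin homology protein that blocks Akt at the membrane, had the largest rise at 6 h among the 8 tested genes. Its signal was 8.80 and 8.92 in TAK1-deleted cells at 6 h, against 7.74 and 7.87 at 0 h. Wild type signals were 9.11 and 9.18 after 6 h, against 7.60 and 7.64 at 0 h. In each genotype the arrays at 6 h lay above those at 0 h without overlap. The change was 1.06 ± 0.13 in TAK1-deleted cells (adjusted p = 8.23e-06) and 1.53 ± 0.13 in wild type cells (adjusted p = 1.16e-07). At 1 h and 3 h neither genotype differed from 0 h by a called amount (range of the 4 changes -0.19 to 0.05). By 24 h the signal was 7.64 and 7.95 in TAK1-deleted cells and 7.85 and 7.96 in wild type cells, a change of -0.01 and 0.29 from 0 h. The 0.29 in wild type cells was not called (adjusted p = 0.076) and was called with replicate number as a block (adjusted p = 0.0209). It was also called with quantile normalization (0.36, adjusted p = 0.0194) and with arrays centred on their medians (0.35, adjusted p = 0.0268). The step between 6 and 24 h was -1.06 ± 0.13 in TAK1-deleted cells (adjusted p = 2.25e-05) and -1.24 ± 0.13 in wild type cells (adjusted p = 3.83e-06). Over this step 3 of the 8 members fell in TAK1-deleted cells, where 18.9% of all genes were called and 8.05% fell, and 5 fell in wild type cells, where 19.4% were called and 10.4% fell. At 6 h the 4 arrays of TAK1-deleted and wild type cells did not overlap, and the difference of -0.28 was not called (adjusted p = 0.363).

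Ccng1, which encodes cyclin G1, a protein that recruits a phosphatase to Mdm2, had a dip followed by a peak. In TAK1-deleted cells the signal was 11.59 and 11.26 after 1 h, 11.62 and 11.25 after 3 h and 12.43 and 12.35 after 6 h, against 12.09 and 11.90 at 0 h. The wild type arrays read 11.63 and 11.54 after 1 h, 11.74 and 11.63 after 3 h and 12.68 and 12.62 after 6 h, against 12.06 and 11.93 at 0 h. The arrays at 1 and 3 h lay below those at 0 h, and those at 6 h above them, in both genotypes. In TAK1-deleted cells it fell by 0.57 ± 0.14 on the log2 scale both at 1 h (adjusted p = 0.00761) and after 3 h (adjusted p = 0.00369). It fell in wild type cells at 1 h, by 0.41 ± 0.14 on the log2 scale (adjusted p = 0.0415). The wild type change after 3 h was -0.31 ± 0.14, not called (adjusted p = 0.0871) but called with the replicate block (adjusted p = 0.00389). The rise at 6 h was 0.39 ± 0.14 in TAK1-deleted cells (adjusted p = 0.037) and 0.66 ± 0.14 in wild type cells (adjusted p = 0.00109). Leaving out 1 array ended several of these calls. At 1 h in TAK1-deleted cells this held without 0 h replicate 1 (-0.48, adjusted p = 0.0895) or 1 h replicate 2 (-0.40, adjusted p = 0.123), and at 3 h without 3 h replicate 2 (-0.38, adjusted p = 0.0678). At 6 h it held without 6 h replicate 1 (0.35, adjusted p = 0.161), 0 h replicate 2 (0.30, adjusted p = 0.218) or 6 h replicate 2 (0.43, adjusted p = 0.0854). The wild type call at 1 h ended without either wild type array at 0, 1 or 6 h or either TAK1-deleted array at 6 or 24 h (adjusted p of 0.0515 to 0.228). It was also lost with no filter (adjusted p = 0.0623), with arrays centred on their medians (adjusted p = 0.127) or with no intensity trend (adjusted p = 0.0561). The rise at 6 h in TAK1-deleted cells was lost with no filter (adjusted p = 0.0569) or with that centring (adjusted p = 0.083). Between 6 and 24 h the change was -0.38 ± 0.14 in TAK1-deleted cells, not called (adjusted p = 0.067; 0.00125 with the replicate block), and -0.65 ± 0.14 in wild type cells (adjusted p = 0.00296), the wild type call being lost without wild type 24 h replicate 2 (-0.51, adjusted p = 0.0524). At 6 h the TAK1-deleted arrays lay below the wild type arrays, with a difference of -0.26 ± 0.14, not called (adjusted p = 0.487; 0.0498 with the replicate block).

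Zmat3, which encodes a zinc finger protein that binds RNA, was dim, at or above the filter of 7.45 in 7 of 20 arrays. Its fold changes may therefore be understated, which was not tested. Its signal was 7.81 and 7.84 in TAK1-deleted cells at 6 h, against 7.40 and 7.26 at 0 h. Values in wild type cells were 8.27 and 8.34 after 6 h, against 7.65 and 7.51 at 0 h. The arrays at 6 h stood above those at 0 h in both genotypes. The rise was 0.49 ± 0.14 in TAK1-deleted cells (adjusted p = 0.0116) and 0.72 ± 0.14 in wild type cells (adjusted p = 0.000556). Without TAK1-deleted 0 h replicate 2 (0.43, adjusted p = 0.0844) or 6 h replicate 2 (0.48, adjusted p = 0.0624) the rise in TAK1-deleted cells was not called. Between 6 and 24 h the change was -0.48 ± 0.14 in TAK1-deleted cells (adjusted p = 0.0251) and -0.92 ± 0.14 in wild type cells (adjusted p = 0.000187), and the first was lost without any one of the 4 TAK1-deleted arrays at 6 or 24 h (adjusted p of 0.0976 to 0.123), with quantile normalization (adjusted p = 0.0545) or with median centring (adjusted p = 0.082). At 6 h the 2 TAK1-deleted arrays lay below the 2 wild type arrays (-0.48 ± 0.14, adjusted p = 0.103; 0.0166 with the replicate block). Non-B lineage markers moved over the same interval. The 14 monocyte or macrophage markers averaged 7.60 and 7.54 after 6 h, against 10.41 and 10.28 at 0 h, in TAK1-deleted cells, and 7.71 and 7.67 against 10.44 and 10.49 in wild type cells. Their part in the rise of the 3 genes was not tested, and fewer cells of a type cannot be told apart from less RNA per cell in these bulk samples.

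**Figure D2:**
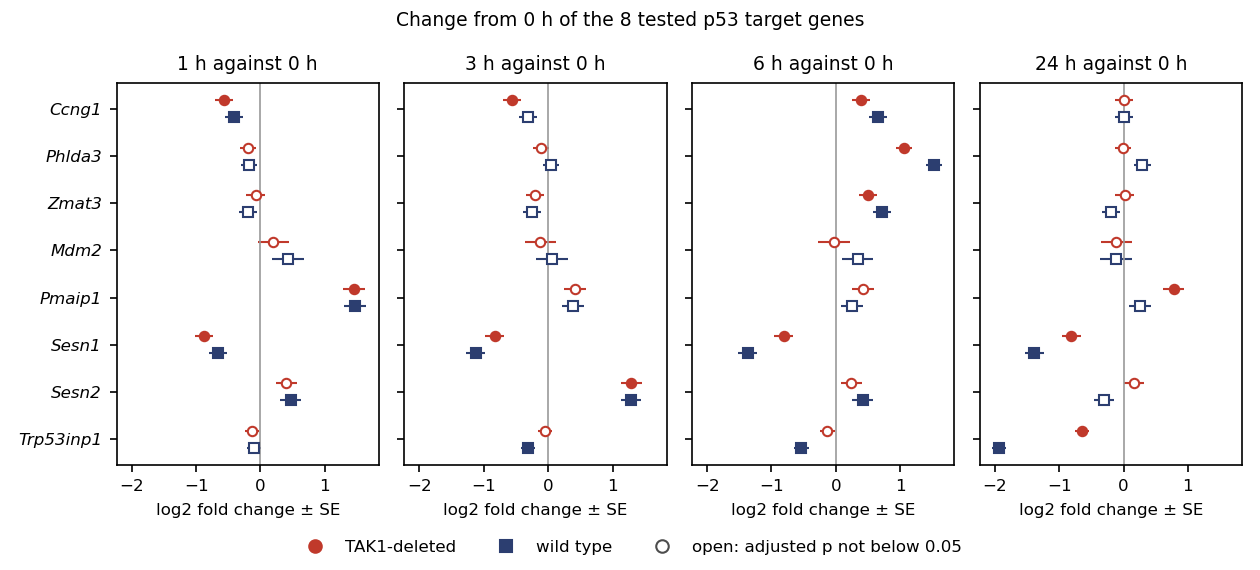
Log2 fold change from 0 h ± SE (x axis) of the 8 tested p53 target genes (rows), with a panel for each of 1, 3, 6 and 24 h, circles for TAK1-deleted cells, squares for wild type cells and open symbols where the adjusted p was not below 0.05. Phlda3 reaches 1.06 in TAK1-deleted cells and 1.53 in wild type cells at 6 h, and Trp53inp1 lies at -0.65 and -1.94 at 24 h.

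Mdm2, the p53 ubiquitin ligase, lay between 9.69 and 10.51 in the TAK1-deleted arrays and between 9.66 and 10.64 in the wild type arrays, so the ranges of the genotypes overlapped. It gave no call in TAK1-deleted cells against 0 h at any time (changes of 0.20, -0.12, -0.03 and -0.11). In wild type cells the change was 0.43 at 1 h, with an adjusted p of 0.228, and 0.34 after 6 h, with an adjusted p of 0.305. Its standard error of 0.25 was the largest of the 8, and replicate 1 was above replicate 2 in 10 of 10 groups by 0.22 to 0.62 (median 0.37). With replicate number as a block the wild type values were called, higher at 1 h (adjusted p = 0.00147) and 6 h (adjusted p = 0.00639) and lower between 6 and 24 h (-0.46, adjusted p = 0.00104, against 0.227 without the block). Quantile normalization also called the wild type rise at 1 h (0.45, adjusted p = 0.0414). Mdm4, the Mdm2 relative that binds p53, was at 10.17 and 9.87 in TAK1-deleted cells at 24 h, against 10.80 and 10.65 at 0 h, and at 10.36 and 10.01 in wild type cells at 24 h, against 10.97 and 10.57 at 0 h. It fell at 24 h in both (-0.70 and -0.59).

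The probe set shared by Cdkn1a and 4930567H12Rik gave the largest changes of any probe set with a member's symbol. Its signal in TAK1-deleted cells was 10.48 and 9.94 after 1 h, 9.56 and 8.65 after 3 h, 10.45 and 9.80 after 6 h and 10.19 and 10.11 after 24 h, against 8.37 and 8.17 at 0 h. Wild type cells gave 11.48 and 10.82 after 1 h, 9.87 and 9.35 after 3 h, 10.94 and 10.69 after 6 h and 9.16 and 9.07 after 24 h, against 8.21 and 7.97 at 0 h. All 16 stimulated arrays lay above all 4 arrays at 0 h. In an added fit that included probe sets of several symbols, it rose at each time in both genotypes, by 1.94, 0.84, 1.86 and 1.88 in TAK1-deleted cells and 3.06, 1.52, 2.72 and 1.02 in wild type cells. At 24 h the TAK1-deleted arrays were higher (1.03 ± 0.30, adjusted p = 0.0325). Between 6 and 24 h the change was 0.02 in TAK1-deleted cells and -1.70 in wild type cells, a difference of 1.72 ± 0.42 (adjusted p = 0.0289). The 2 genes are on different chromosomes (17 and 8), and which gives the signal was not tested.

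Pmaip1, which encodes the BH3-only protein Noxa that neutralises Mcl1, peaked at 1 h. In TAK1-deleted cells the signal was 9.64 and 9.13 after 1 h, 8.43 and 8.28 after 3 h, 8.27 and 8.44 after 6 h and 8.76 and 8.67 after 24 h, against 7.95 and 7.92 at 0 h. Wild type signals were 9.96 and 9.50 after 1 h, 8.62 and 8.67 after 3 h, 8.45 and 8.56 after 6 h and 8.61 and 8.42 after 24 h, against 8.34 and 8.18 at 0 h. The stimulated arrays lay above those at 0 h in each genotype. The rise at 1 h was 1.45 ± 0.17 in TAK1-deleted cells (adjusted p = 1.25e-05) and 1.47 ± 0.17 in wild type cells (adjusted p = 8.26e-06), and at 24 h 0.78 ± 0.17 in TAK1-deleted cells (adjusted p = 0.00251) and 0.26 in wild type cells, not called (adjusted p = 0.244). With quantile normalization the wild type change at 24 h was called too (0.34, adjusted p = 0.0322). The difference in response at 24 h was 0.52 ± 0.24 (adjusted p = 0.24). With the replicate block TAK1-deleted cells were called higher at 3 h (adjusted p = 0.0147, against 0.0602) and 6 h (0.0157, against 0.0657) and between 6 and 24 h (0.049, against 0.168), and wild type cells at 3 h (0.0206, against 0.0741). Of 12 tested genes of the Bcl2 family, 2, 3, 3 and 4 rose and 3, 4, 2 and 2 fell in TAK1-deleted cells over the 4 times. In wild type cells 3 rose at each time while 4, 4, 4 and 2 fell. Called in either direction were 41.7%, 58.3%, 41.7% and 50% of the 12 in TAK1-deleted cells, beside 19.3%, 41.7%, 35.8% and 27.6% of all genes, and 58.3%, 58.3%, 58.3% and 41.7% in wild type cells, beside 24.5%, 44.1%, 43.2% and 43.8% of all genes. Bcl2l1 (anti-apoptotic Bcl-xL) rose by 0.74, 1.27 and 1.48 at 3, 6 and 24 h in TAK1-deleted cells and by 1.23, 2.45, 2.41 and 2.30 at 1, 3, 6 and 24 h in wild type cells, and was lower in TAK1-deleted cells at each of those 4 times (-1.09, -1.63, -1.05 and -0.74). Bcl2l11, which encodes Bim, rose by 1.71 to 2.33 in TAK1-deleted cells and 1.51 to 2.16 in wild type cells, and Mcl1, the anti-apoptotic partner of Noxa, fell at each time in both.

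Sesn1, a sestrin that restrains mTORC1, was highest at 0 h and fell at every time in both genotypes. In TAK1-deleted cells its signal was 10.79 and 10.31 after 1 h, 10.62 and 10.57 after 3 h, 10.72 and 10.52 after 6 h and 10.70 and 10.54 after 24 h, against 11.48 and 11.38 at 0 h. The wild type arrays read 10.82 and 10.77 after 1 h, 10.24 and 10.41 after 3 h, 10.13 and 10.03 after 6 h and 10.15 and 9.98 after 24 h, against 11.53 and 11.37 at 0 h. The stimulated arrays lay below the 0 h arrays in each genotype. The changes were -0.88, -0.83, -0.81 and -0.81 at 1, 3, 6 and 24 h in TAK1-deleted cells and -0.66, -1.13, -1.37 and -1.38 in wild type cells, all called. At 24 h the TAK1-deleted arrays lay above the wild type arrays, by 0.55 ± 0.15 (adjusted p = 0.0212), and leaving out any of the 4 arrays at 24 h ended the call (0.47 to 0.64, adjusted p of 0.0532 to 0.164), as did centring arrays on their medians (0.56, adjusted p = 0.0539). At 6 h the difference was 0.54 (adjusted p = 0.0701; 0.00238 with the replicate block). The difference in response was 0.56 at 6 h (adjusted p = 0.374; 0.033 with the block), and after 24 h it was 0.58 (adjusted p = 0.113; 0.00992 with the block).

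Sesn2, the stress-induced sestrin, peaked at 3 h in both genotypes. Its signal in TAK1-deleted cells was 9.22 and 9.28 after 1 h, 10.35 and 9.93 after 3 h, 9.11 and 9.07 after 6 h and 9.12 and 8.89 after 24 h, against 8.88 and 8.82 at 0 h. Values in wild type cells were 9.26 and 9.12 after 1 h, 10.06 and 9.96 after 3 h, 9.24 and 9.04 after 6 h and 8.60 and 8.25 after 24 h, against 8.84 and 8.60 at 0 h. The 3 h arrays lay above all others of their genotype. The rise at 3 h was 1.29 ± 0.16 in each genotype (adjusted p = 7.81e-06 in TAK1-deleted cells and 7.01e-06 in wild type cells). In wild type cells it also rose at 1 h (0.47 ± 0.16, adjusted p = 0.0417) and 6 h (0.42 ± 0.16, adjusted p = 0.0442). These calls ended when 1 array was left out: at 1 h either wild type array at 0, 1, 3 or 6 h or either TAK1-deleted array at 6 h (adjusted p of 0.0506 to 0.211). At 6 h the arrays were wild type 0 h replicate 2, either wild type array at 3 or 6 h, or either TAK1-deleted array at 0, 1 or 6 h (adjusted p of 0.0511 to 0.262). With no filter both calls were lost (adjusted p = 0.0641 at 1 h and 0.0696 at 6 h), and median centring ended that at 1 h (adjusted p = 0.0742). With the block TAK1-deleted cells were called higher at 1 h (adjusted p = 0.007, against 0.0951) and wild type cells lower at 24 h (-0.30, adjusted p = 0.0248, against 0.143). The step between 6 and 24 h was -0.72 in wild type cells (adjusted p = 0.00395), lost without wild type 6 h replicate 1 (-0.62, adjusted p = 0.0631) or 24 h replicate 2 (-0.54, adjusted p = 0.0653). At 24 h the TAK1-deleted arrays were above the wild type arrays, by 0.59 ± 0.16 (adjusted p = 0.0232), lost without TAK1-deleted 24 h replicate 1 (0.47, adjusted p = 0.197) or wild type 24 h replicate 2 (0.41, adjusted p = 0.186), and with median centring (0.60, adjusted p = 0.0543). The difference in response at 24 h was 0.46 (adjusted p = 0.282; 0.0403 with the block), and that in the step between 6 and 24 h was 0.63 (adjusted p = 0.178; 0.0101 with the block). Of 13 tested genes of the ATF4 stress programme, a list to which Sesn2 also belongs, 10 rose in TAK1-deleted cells at 3 h and 0 fell (19.6% and 22.1% of all genes), and 10 rose and 1 fell in wild type cells (20.9% and 23.2%), with medians of 1.15 and 1.22. Slc7a11, the cystine transporter, rose by 1.92 in TAK1-deleted cells and 2.73 in wild type cells at 3 h.

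Trp53inp1, which encodes a protein that supports p53 activity and autophagy, showed the difference between genotypes with the largest size among the 8 tested genes. Its signal in TAK1-deleted cells was 11.40 and 11.16 after 1 h, 11.39 and 11.36 after 3 h, 11.28 and 11.29 after 6 h and 10.75 and 10.79 after 24 h, against 11.45 and 11.38 at 0 h. Wild type cells gave 11.49 and 11.39 after 1 h, 11.26 and 11.22 after 3 h, 11.04 and 10.98 after 6 h and 9.72 and 9.49 after 24 h, against 11.57 and 11.52 at 0 h. At 24 h all 4 arrays of the genotypes were apart, TAK1-deleted above wild type. The fall at 24 h was -0.65 ± 0.11 in TAK1-deleted cells (adjusted p = 0.000329) and -1.94 ± 0.11 in wild type cells (adjusted p = 1.73e-09). In wild type cells it also fell after 3 h (-0.31, adjusted p = 0.0315), a call that ended without any one of the wild type arrays at 0 or 3 h (adjusted p of 0.0744 to 0.13) and with median centring (adjusted p = 0.112), and after 6 h (-0.53, adjusted p = 0.000839). TAK1-deleted cells were higher than wild type cells at 24 h by 1.17 ± 0.11 (adjusted p = 4.84e-06), a fold of 2.24. At 6 h they were 0.27 higher, not called (adjusted p = 0.286; 0.0385 with the block). The difference in response was 0.40 after 6 h (adjusted p = 0.396; 0.0461 with the block). After 24 h it was 1.30 ± 0.15 (adjusted p = 0.000105). The step between 6 and 24 h was -0.52 in TAK1-deleted cells (adjusted p = 0.00327) and -1.41 in wild type cells (adjusted p = 2.51e-07), a difference of 0.89 ± 0.15 (adjusted p = 0.00298), in a contrast that called 3.87% of all genes and 3.24% as higher.

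Set against wild type cells, 0 of the 8 genes were called at 0, 1, 3 and 6 h in limma (backgrounds of 2.32%, 4.28%, 2.71% and 2.53%), with 0, 0, 0 and 4 at an unadjusted p below 0.05, and the replicate block called 4 at 6 h, where it called 12.2% of all genes, and 0 at the earlier times (6.99%, 12.9% and 8.31%). At 24 h 3 were called, all higher in TAK1-deleted cells: Trp53inp1, Sesn1 and Sesn2, against 12.2% of all genes in either direction and 7.04% higher. The median difference of the 8 was -0.01, -0.14, -0.01, -0.20 and 0.17 at 0, 1, 3, 6 and 24 h, beside 0.01, 0.03, 0.01, 0.00 and 0.00 for all genes. The difference in response was called for Trp53inp1 at 24 h alone (8.66% of all genes called, 4.62% higher), and for 0 genes at 1, 3 and 6 h in limma (0.109%, 0.0585% and 0.284%), with 0, 0 and 3 at an unadjusted p below 0.05. Markers of other cells and cell cycle genes differed between the genotypes too. At 24 h 10 of 11 neutrophil markers and 11 of 14 monocyte or macrophage markers were higher in TAK1-deleted cells, with list means of 9.25 and 9.24 against 7.33 and 7.44, and of 9.36 and 9.31 against 7.94 and 7.96, in wild type cells. Of 19 G2/M genes, 18 were lower at 24 h in TAK1-deleted cells (8.95 and 8.80, against 9.96 and 9.69). At 0 h 9 of 9 erythroid markers were higher in TAK1-deleted cells, at 10.13 and 9.76 against 7.91 and 8.02 in wild type cells. At 24 h 4 of 7 T cell and 3 of 7 dendritic cell markers were also higher in TAK1-deleted cells, with list means of 8.60 and 8.66 against 7.99 and 7.91, and of 8.09 and 8.02 against 7.22 and 7.37, in wild type cells. At 0 h 4 of 7 NK cell, 3 of 7 T cell and 3 of 6 plasma cell markers were lower in TAK1-deleted cells, and the NK and plasma list means were 8.42 and 8.27 against 9.48 and 9.38, and 8.99 and 8.80 against 10.36 and 10.21 in wild type cells. Jchain had by far the largest difference of the 6 plasma cell markers (-5.31), and the others lay between -1.11 and -0.26. No marker in these lists reads 0. The part of these markers in the 24 h differences of the 3 genes was not tested.

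**Figure D3:**
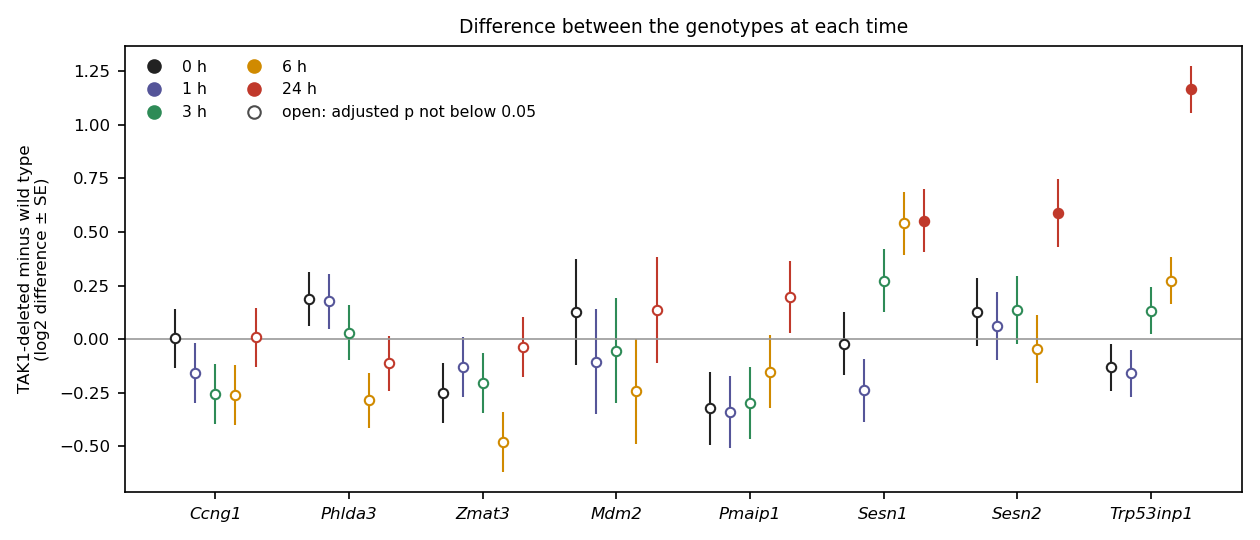
Log2 difference, TAK1-deleted minus wild type, ± SE (y axis) of each tested p53 target gene (x axis), with a colour for each time and open symbols where the adjusted p was not below 0.05. The filled symbols are Trp53inp1, Sesn1 and Sesn2 at 24 h, at 1.17, 0.55 and 0.59.

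**Figure D4:**
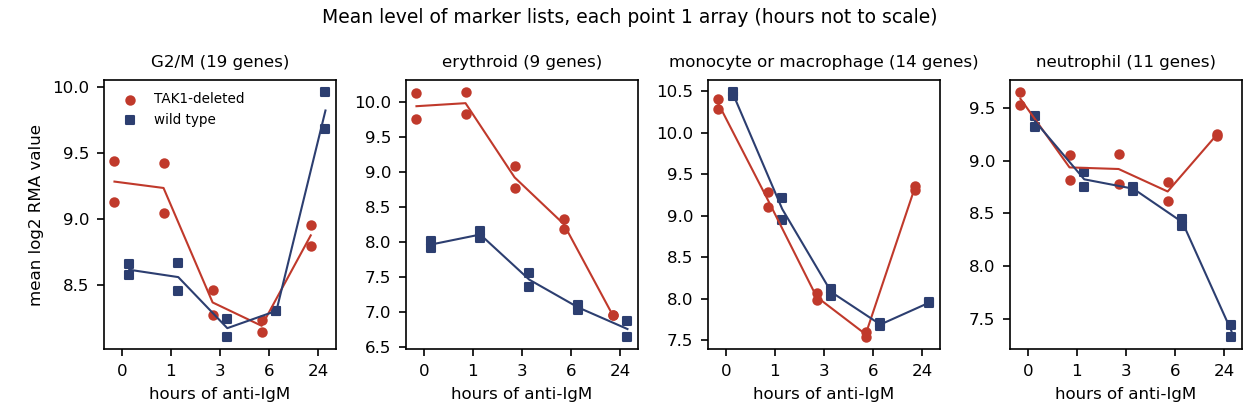
Mean log2 RMA value (y axis) of the G2/M, erythroid, monocyte or macrophage and neutrophil lists in every array, by hours of anti-IgM (x axis, not to scale), with TAK1-deleted arrays as circles, wild type arrays as squares and lines joining group means. At 24 h the monocyte or macrophage and neutrophil lists lie higher, and the G2/M list lower, in TAK1-deleted cells.

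Of 30 other p53 targets, 24 were tested. In TAK1-deleted cells 5, 6, 7 and 9 rose and 2, 8, 5 and 1 fell at 1, 3, 6 and 24 h, and in wild type cells 7, 4, 9 and 8 rose and 3, 7, 5 and 4 fell. Called in either direction were 29.2%, 58.3%, 50% and 41.7% of the 24 in TAK1-deleted cells, beside 19.3%, 41.7%, 35.8% and 27.6% of all genes, and 41.7%, 45.8%, 58.3% and 50% in wild type cells, beside 24.5%, 44.1%, 43.2% and 43.8% of all genes. The largest was Plk2, a polo-like kinase gene, at 5.73 in TAK1-deleted cells and 5.31 in wild type cells at 1 h, and Plk3, a second polo-like kinase gene, was at 3.54 and 3.02. At 6 h Tnfrsf10b, the mouse TRAIL receptor gene, rose by 1.13 in TAK1-deleted cells and 1.44 in wild type cells, and Aen, a nuclease gene, rose by 1.46 in wild type cells. Rps27l, encoding a ribosomal protein relative, rose by 1.18 in TAK1-deleted cells at 6 h. The rule for named genes gave Aen and Rps27l in 1 genotype each, which is no test of a difference between the genotypes. Between genotypes Fas, the death receptor gene, was lower in TAK1-deleted cells at 0, 1 and 3 h (-0.82, -2.04 and -0.92), and at 24 h Dram1, a lysosomal autophagy gene, and Btg2, an antiproliferative gene, were higher (0.83 and 0.81). Of 12 regulators of p53, 0, 3, 1 and 2 rose and 1, 3, 2 and 3 fell in TAK1-deleted cells over the 4 times, and 0, 1, 3 and 2 rose and 2, 3, 1 and 3 fell in wild type cells. These come to 8.33%, 50%, 25% and 41.7% of the 12 in TAK1-deleted cells and 16.7%, 33.3%, 33.3% and 41.7% in wild type cells, beside the same shares of all genes. Chek1, a checkpoint kinase gene, rose by 1.08 in TAK1-deleted cells and 2.82 in wild type cells at 24 h, with a difference in response of -1.74 (adjusted p = 0.0285), and Ep300, a p53 acetyltransferase gene, fell at each time in both. Trp53 is not analysed here.

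**Figure D5:**
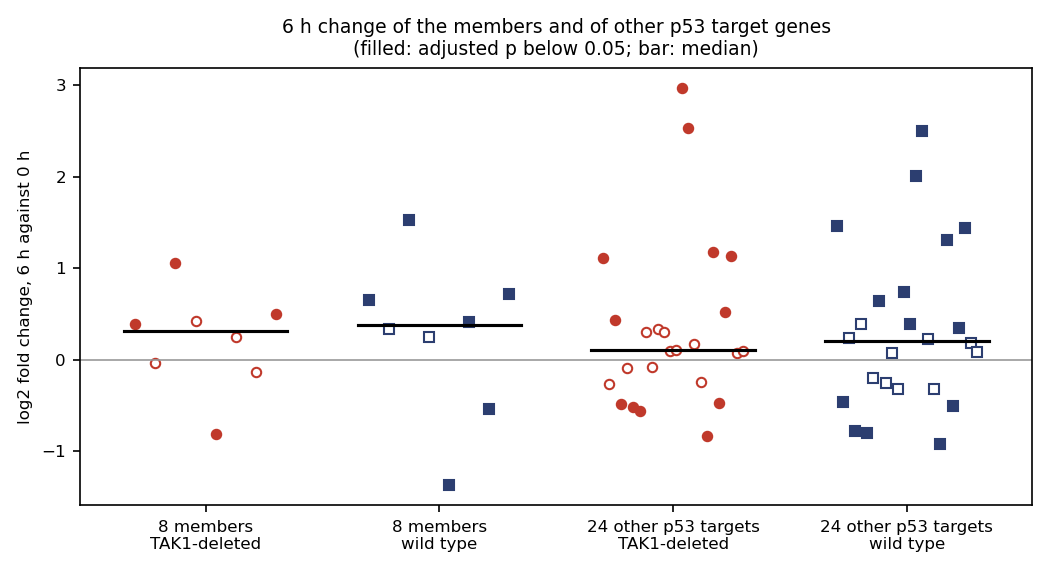
Log2 fold change at 6 h against 0 h (y axis) of the 8 tested p53 target genes and of 24 other p53 targets, for TAK1-deleted cells (circles) and wild type cells (squares), filled where the adjusted p was below 0.05, with a bar at each median. The medians are 0.32 and 0.38 for the 8 genes and 0.10 and 0.20 for the others, TAK1-deleted cells before wild type cells in each pair.

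Over the 10 group means, the genes most like each member were chosen by Pearson r and are given as a description. Both genes of a pair are read from the same arrays. For Phlda3 they were Ifit2 (0.97) and Mov10 (0.96), for Ccng1 Trim30d (0.97) and Dhx58 (0.97), and for Zmat3 Oas3 (0.96) and Il1rap (0.95). Ifit2, Oas3 and Dhx58 take part in antiviral responses. Ifit2 rose by 0.92 in TAK1-deleted cells and 1.70 in wild type cells at 6 h, and Oas3 by 0.48 and 1.34. Dhx58 rose by 1.60 in wild type cells at 6 h, and its change in TAK1-deleted cells was 0.74 (adjusted p = 0.123). For Mdm2 they were Ccrl2 (0.91) and Zc3hav1 (0.90), for Pmaip1 Zfp36l1 (0.99) and Katna1 (0.98), for Sesn1 Crebl2 (0.98) and Gpr35 (0.98), for Sesn2 Zswim8 (0.96) and Btbd9 (0.94), and for Trp53inp1 Neurl3 (0.97) and Kansl1 (0.97). Among the members Ccng1, Phlda3 and Zmat3 had r of 0.87 to 0.89 with one another, and the other pairs -0.48 to 0.66.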

How the data were processed

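Total RNA of 20 samples of mouse splenic B cells was measured on arrays, in 10 groups of 2. The deposited log2 values are the authors' RMA output from Affymetrix Expression Console 1.0; both names are from the submitters' processing notes, and which build underlies the probe sets is not given in the sources used here. Of 35556 probe sets, 23410 are in the annotation used, 21789 with 1 symbol and 1621 with several. Genes were kept where a single-symbol probe set reached the overall median (7.45) in at least 2 arrays, with the highest-mean probe set for a gene, leaving 11968. A group-means model over all 20 arrays was fitted in limma 3.58.1 (R 4.3.3) with an intensity trend. Within each of 20 contrasts, p was adjusted by Benjamini-Hochberg and calls needed less than 0.05. Scripts were tested on simulated data. Members and lists were chosen with earlier results of these data known. The rule for named genes took all members, Trp53, Mdm4 and Map3k7, up to 4 called genes per list and family of contrasts with the largest change, and the 2 most alike genes per member. The labels give replicate numbers 1 and 2 in each group. Deviations of same-numbered arrays correlated in 45 of 45 pairs of groups (r of 0.191 to 0.769). The numbers were taken as pairing in the replicate block alone. All other fits, with the main one, left this pairing out. The probe set of Cdkn1a and 4930567H12Rik was tested in a fit added after seeing the data. Alternatives tried were no filter, a stricter filter, mean of probe sets, quantile normalization, median centring, no trend, the replicate block and each array left out. Raw scans were not used here.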

Additional observations from a re-analysis of the deposited data

Results flagged for a closer look

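Trp53inp1 was singled out because its change differed between the genotypes by a test of the difference itself. From 0 h to 24 h the change in TAK1-deleted cells minus that in wild type cells was 1.30 ± 0.15 (adjusted p = 0.000105 in limma), and at 24 h both TAK1-deleted arrays lay below their 0 h arrays by less than both wild type arrays did. Between 6 and 24 h the same difference was 0.89 ± 0.15 (adjusted p = 0.00298 in limma). Both contrasts use the same 24 h arrays, at which monocyte or macrophage and neutrophil markers were also higher, and G2/M genes lower, in TAK1-deleted cells. The response at 24 h, a difference in the change from 0 h, called 8.66% of all genes and 4.62% as higher. In it 12 of 14 monocyte or macrophage, 8 of 11 neutrophil and 6 of 7 T cell markers were higher in TAK1-deleted cells. The same held for 3 of 7 NK cell, 3 of 7 dendritic cell and 3 of 6 plasma cell markers. Lower were 8 of 9 erythroid markers and 19 of 19 G2/M genes. A higher response is not always a higher level. Jchain (response 2.95) was lower in TAK1-deleted cells at 24 h (-2.36), while Cd28 (response 2.02) was higher (1.25). The part of these markers and genes in the result was not tested.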

How the results depend on the processing

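Of 41 called values of the members, 28 kept their call under every setting that gave a value (28 settings, or 27 for Zmat3), 0 reversed, and the replicate block gained 21 calls and lost 0. Apart from the calls given beside each result, the block changed no other call of the members. Summed over contrasts, calls between genotypes were 3, against 1 with arrays centred on their medians, 5 with quantile normalization and 7 with the replicate block. Differences in response were 1, against 4 with quantile normalization and 5 with the replicate block. Leaving out 1 array gave 11 to 15 calls in TAK1-deleted cells against 0 h (13 in full), 11 to 15 in wild type cells (15 in full), 1 to 4 between genotypes, 1 in response and 7 to 10 between 6 and 24 h (9 in full). Over all genes the block raised the share called between genotypes to 13.8%, against 4.81%, in response to 7.79%, against 2.28%, between 6 and 24 h to 28.1%, against 14.0%, and in TAK1-deleted cells against 0 h to 47.3%, against 31.1%. The share between genotypes was 8.43% and that in response 4.38% with quantile normalization. With no filter the shares were 18.2% in TAK1-deleted cells and 23.2% in wild type cells against 0 h, 2.63% between genotypes, 1.24% in response and 7.68% between 6 and 24 h, over more genes tested. Zmat3 gave no value where genes had to reach the median in at least 10 arrays. The cause of the other changes was not tested. Zmat3 reached the filter's level in 7 of 20 arrays, and whether background limits its fold changes was not tested.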

Other observations

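A list of 13 genes, all tested, held cyclins, CDKs, Pcna and the CDK inhibitor genes Cdkn1b and Cdkn1c. Of these, 3 rose and 2 fell in TAK1-deleted cells at 24 h (14.9% and 12.7% of all genes). In wild type cells 9 rose and 2 fell (23.6% and 20.2%). The difference in response at 24 h was called for 5 of the 13, all lower in TAK1-deleted cells, and for 8.66% of all genes in either direction. Ccnd1, a G1 cyclin gene, fell in both, by 2.19 on the log2 scale in TAK1-deleted cells and by 2.67 in wild type cells at 24 h. Ccnd2, the cyclin D2 gene, was lower in TAK1-deleted cells at 1, 3, 6 and 24 h (-0.97, -1.87, -1.62 and -0.56). Ccna2, Ccne1 and Cdk1 were higher at 0 h (1.28, 0.86 and 0.88) and lower at 24 h (-0.97, -0.81 and -0.98) in TAK1-deleted cells than in wild type cells.

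Of 13 sestrin partners and GATOR genes, all tested, 3 rose and 0 fell in TAK1-deleted cells at 24 h (14.9% and 12.7% of all genes), and 2 rose and 2 fell in wild type cells (23.6% and 20.2%). Sesn3, the remaining sestrin, fell by 0.89 at 3 h in both genotypes, and at 24 h was higher in TAK1-deleted cells by 0.47 (adjusted p = 0.0489 in limma). Castor2, an arginine sensor relative, was higher by 0.88 at 24 h.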
